A study of Tigriopus californicus with 32 samples.

Results

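The genes described here are those listed in all 3 tables of the southern population SD-S and all 3 of the southern population BR-S and in none of the 6 tables of the northern populations SC-N and BB-N, with a mean 20NV value of at least 5 in both southern populations. The rule found 80 genes of the 21556 that were listed in at least 1 table. They are called southern-only genes below, and the name means only that reads were counted above the authors' filter in the south and not in the north. They were chosen by presence in the tables and by the 20NV values, so the absence from the north and the level at 20NV are descriptions and were not tested.

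The intertidal copepod Tigriopus californicus was sampled as laboratory cultures of 4 Californian populations. The southern ones were from San Diego (SD-S) and Bird Rock (BR-S), and the northern ones from Santa Cruz (SC-N) and Bodega Bay (BB-N). In the variable regime each day had 12 h of 28° and 12 h of 20°, and animals were collected 2 h into the warm part (28V) or as the cool part ended (20V). In the nonvariable regime animals lived at 20° and were collected after 2 h at 28° (28ST) or without it (20NV). No population carried an introduced allele and no agent other than temperature was applied. RNA for each RNA-seq library came from 100 pooled copepods (males and females, 50 each), with 2 pools per treatment and 32 libraries in all, of which the 16 southern ones carry values for these genes.

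Splash pools heat and cool with the tide and the sun, and copepods in them meet warm water often. Cells answer warming with chaperones, proteins that bind unfolded proteins and help them fold, and with changes in many other genes. Whether a gene is counted in a population also depends on the reference to which the reads are mapped. Here each population had its own reference: genomic transcripts (GT, identifiers starting with TCALIF), built on the SD-S genome, and de novo transcripts (DNT, identifiers starting with comp or Contig), to which only the reads left over from the genomic transcripts were mapped. A gene can therefore be missing from a table because it was not expressed, because its reads were placed elsewhere or did not match closely enough, or because its reference sequence was incomplete, and these cannot be told apart in the tables. The study kept only genes with orthologs in all 4 populations. A gene that is not listed for a population thus still had a counterpart in the reference of that population.

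The values are reads scaled by library size to cpm, the usual depth-corrected unit, with TMM factors, a scaling that balances the composition of the libraries, and each table was scaled separately. Between 5292550 and 14252927 reads per library were recovered in SD-S and between 3647378 and 14406882 in BR-S. The column names split the libraries of a treatment into suffix a and suffix b, and suffix b had more reads in all 8 southern treatments. The sequencing lanes held SD-S together with SC-N and BR-S together with BB-N, so the south and the north do not separate by lane, whereas a difference in level between SD-S and BR-S cannot be told apart from a difference between lanes. In no table was a gene kept unless it reached 2 cpm in at least 2 of 4 libraries. A southern-only gene thus reached 2 cpm in at most 2 of the 8 libraries of SC-N, and the same holds for BB-N. In the smallest northern library 2 cpm was 7.31 reads, and in the largest it was 29.0 reads.

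Of the 80 southern-only genes, 22 were GT and 58 DNT, of which 45 were comp and 13 were Contig transcripts. The same rule was applied to the other 5 pairs of populations as a description. It gave 85 genes for SD-S and SC-N, 46 for SD-S and BB-N, 55 for BR-S and SC-N, 31 for BR-S and BB-N, and 159 for SC-N and BB-N. The total for the southern pair thus lay within the range of the other pairs and below that of SD-S and SC-N. The GT numbered 22 for the southern pair, against 1 for SD-S and SC-N, 4 for SD-S and BB-N, 1 for BR-S and SC-N, 4 for BR-S and BB-N and 5 for SC-N and BB-N. GT made up 27.5% of the southern-only genes, against 1.18% to 12.9% in the other pairs. Among all genes listed in both southern populations with the same minimum, 0.230% of the GT and 1.91% of the DNT were southern-only. Without the minimum the southern pair had 235 genes with 76 GT, and SC-N and BB-N had 350 genes with 19 GT. The GT reference was built on the SD-S genome, and its part in these counts was not tested.

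**Figure D1:**
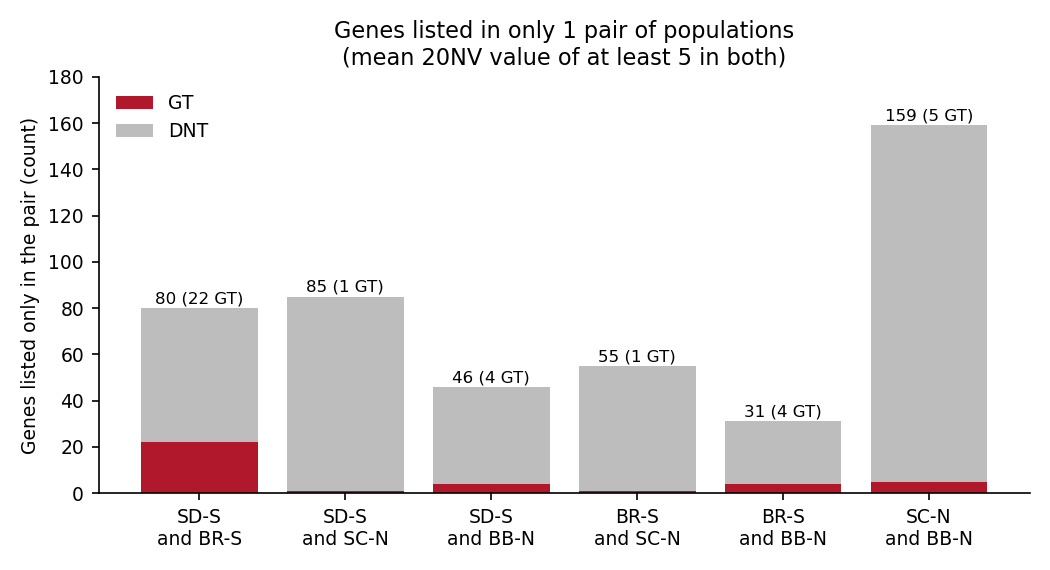
Number of genes listed in only 1 pair of populations, for the 6 pairs, with the count on the vertical axis split into GT (red) and DNT (grey). The bar of SD-S and BR-S holds 80 genes with 22 GT, and the other bars hold 31 to 159 genes with 1 to 5 GT.

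Of the 12611 genes with the minimum in both southern populations, 12002 were in all 6 northern tables and 80 in none, while 21 were in 1 table, 21 in 2, 354 in 3, 58 in 4 and 75 in 5. Dropping the condition on BB-N and asking only for absence from SC-N gave 220 genes, and asking only for absence from BB-N gave 326. At the minimum of 5, the genes just inside were comp48727_c0_seq4_37950, with a mean of 5.06 in BR-S, and comp48153_c0_seq1_36705, with 5.09 in SD-S. Just outside were Contig1657_3512, with a mean of 4.999 in SD-S, and Contig6926_8381, with 4.92 in BR-S.

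The southern-only genes were of low to moderate level. At 20NV their means ran from 5.09 to 166 in SD-S (median 17.2) and from 5.06 to 405 in BR-S (median 15.4), while the other genes with the same minimum had medians of 33.4 in SD-S and 27.5 in BR-S. In SD-S 26 of the 80 lay under 10 and 3 at or over 100, and in BR-S 30 lay under 10 and 8 at or over 100. No southern-only gene had 0 reads in any of the 16 libraries, and the lowest number of reads was 6. In 76 of them every southern library was at 2 or above. The exceptions were comp49191_c0_seq1_39028 with 5 libraries under 2, TCALIF_06884 with 2, and TCALIF_05816 and comp49199_c0_seq4_39064 with 1 each; comp49191_c0_seq1_39028 and TCALIF_05816 are named without a function in the authors' lists.

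**Figure D2:**
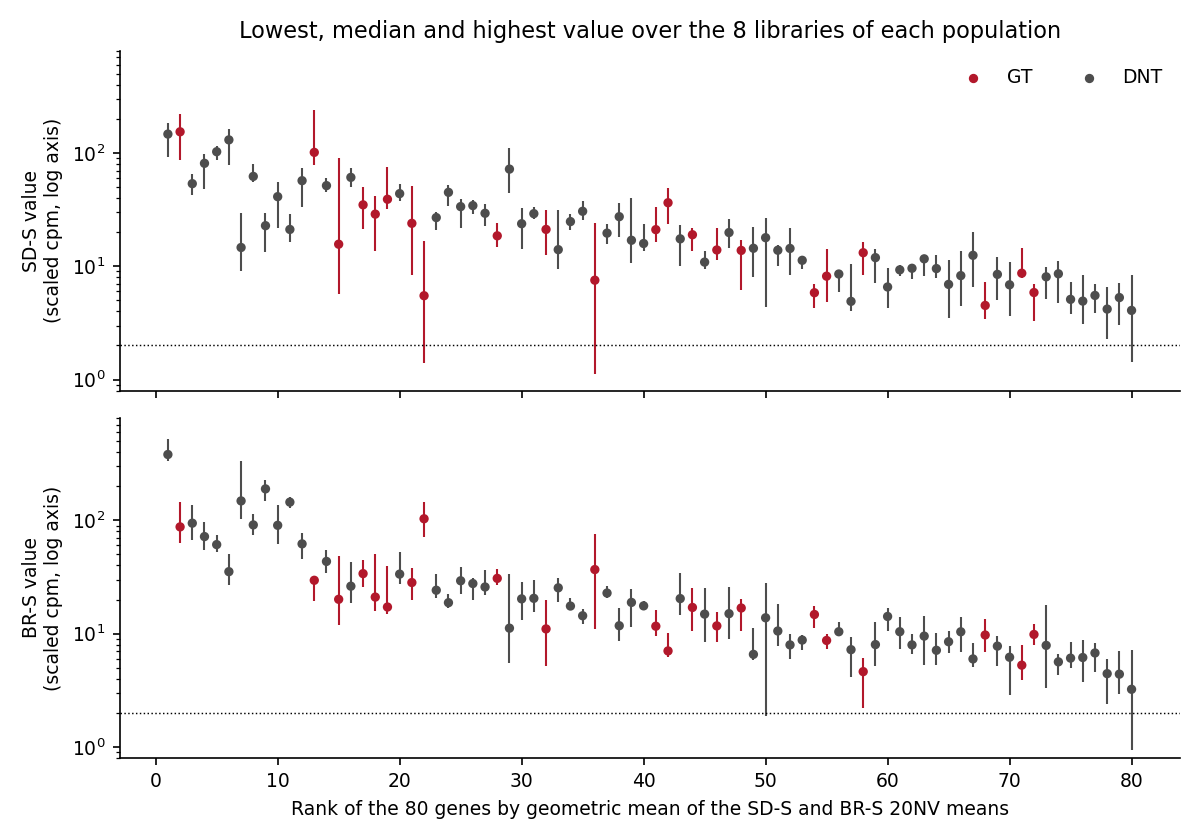
Values of the 80 southern-only genes over the 8 libraries of SD-S (top) and of BR-S (bottom), in scaled cpm on a log axis, with genes ordered by level, points for medians and lines from the lowest to the highest library; GT are red, DNT are dark grey, and the dotted line marks 2 cpm. Most ranges stay above the line, and the widest ones include TCALIF_05816 in SD-S, from 1.40 to 16.7.

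The highest level was that of comp43192_c0_seq4_28607, a transcript with no description. At 20NV it had 172 and 158 in SD-S and 338 and 473 in BR-S (suffix a and suffix b), and over all treatments it ran from 91.9 to 183 in SD-S and from 335 to 521 in BR-S. All 8 BR-S libraries were above all 8 SD-S libraries. These levels lay at the percentiles 94.1 of SD-S and 98.5 of BR-S among all genes listed. The GT of highest level, TCALIF_12889, had 175 and 158 in SD-S and 68.6 and 144 in BR-S at 20NV, with overlapping ranges over the 8 libraries of each (86.1 to 220 and 63.3 to 144). Further genes with similar levels in the southern populations were comp43012_c0_seq1_28364 (SD-S 93.7 and 47.8, BR-S 59.6 and 97.1) and comp38261_c0_seq1_22767 (SD-S 73.7 and 33.5, BR-S 45.2 and 66.8). In both the libraries of SD-S and BR-S overlapped, and in both suffix a was the higher at 20NV in SD-S and suffix b in BR-S.

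Other highly ranked genes lay apart between the populations. For comp43393_c0_seq1_28874 SD-S ran from 86.1 to 115 and BR-S from 53.0 to 74.8, and for comp42269_c0_seq1_27463 SD-S ran from 77.6 to 162 and BR-S from 27.1 to 50.6. For Contig360_359 it was the reverse, with 42.4 to 64.8 in SD-S and 66.5 to 136 in BR-S, and for comp38439_c0_seq1_22963 with 21.8 to 55.6 in SD-S and 62.1 to 137 in BR-S. None of these transcripts has a description. The tables were scaled separately, so these levels stand side by side without a test.

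The largest ratios of SD-S over BR-S at 20NV were 6.29 for comp32785_c0_seq1_17987 (described as heat shock protein 40), 4.74 for TCALIF_13317, 3.67 for TCALIF_12798 and 2.87 for comp24564_c0_seq1_13026. TCALIF_13317 ran from 23.7 to 49.2 in SD-S and from 6.18 to 10.1 in BR-S, TCALIF_12798 from 79.1 to 241 and from 19.4 to 31.98, and comp24564_c0_seq1_13026 from 49.9 to 73.1 and from 18.7 to 42.5. The smallest ratios were 0.0696 for TCALIF_05816, 0.0881 for Contig1922_1921, 0.144 for comp48639_c1_seq1_37728 and 0.145 for comp39930_c1_seq2_24681. TCALIF_05816 had 13.7 and 1.40 in SD-S at 20NV and 70.8 and 147 in BR-S. Contig1922_1921 ran from 9.13 to 29.6 in SD-S and from 103 to 333 in BR-S, comp48639_c1_seq1_37728 from 16.3 to 28.8 and from 130 to 161, and comp39930_c1_seq2_24681 from 13.3 to 29.3 and from 147 to 228. All 8 libraries of the higher population were above all 8 of the lower in each of these 8 genes.

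In 12 southern-only genes all 8 SD-S libraries were above all 8 BR-S libraries, against 22.2% of all genes with the same minimum, and in 12 all 8 BR-S libraries were above all 8 SD-S libraries, against 4.35%. The direction was thus even among the southern-only genes, while among the other genes SD-S was the higher in 2782 and BR-S in 536 of 12531. The contrast was smaller within DNT, with 8 and 8 of the 58 southern-only and 611 and 262 of the 2979 others. Within GT the numbers were 4 and 4 of 22, and 2171 and 274 of 9552. The median log2 ratio of SD-S over BR-S was 0.10 for the southern-only genes and 0.27 for the others. At least a 2-fold difference at 20NV was found in 23.8% of the southern-only genes, in 14.9% of the others and in 21.6% of the other DNT. Across genes, the log2 levels of SD-S and BR-S had a Pearson correlation of 0.70 (Spearman 0.75) over the 80 southern-only genes and 0.87 (0.87) over the 12531 others. These are descriptions, since genes are not independent replicates and the southern-only genes span a narrower range of levels.

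**Figure D3:**
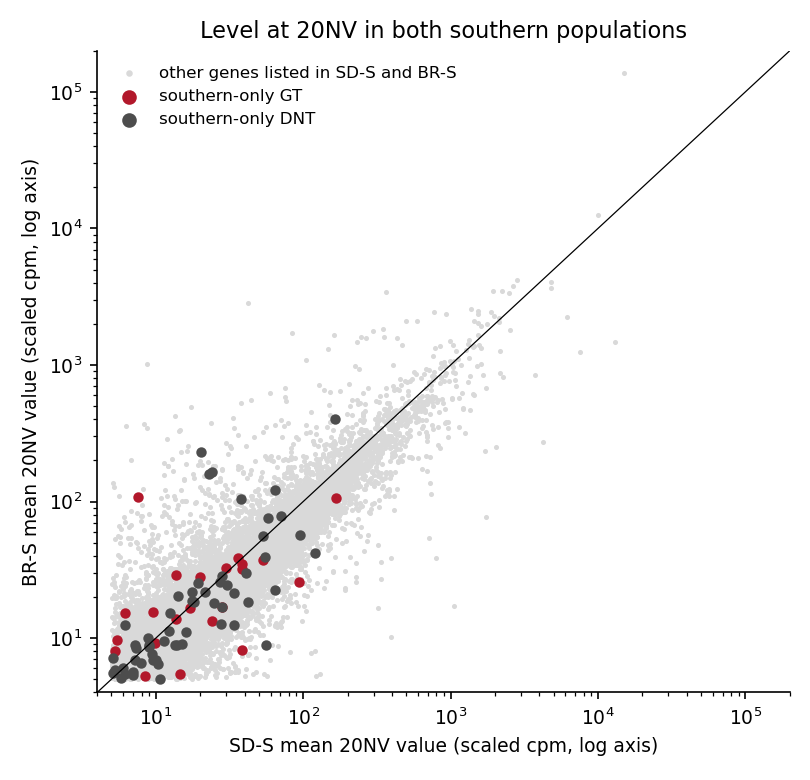
Mean 20NV value in SD-S (horizontal) and in BR-S (vertical), both in scaled cpm on log axes, for southern-only GT (red), southern-only DNT (dark grey) and the other 12531 genes with the same minimum (light grey); the line marks equal levels. Among the southern-only genes, those far above the line include TCALIF_05816 (ratio 0.0696), and the one farthest below it is comp32785_c0_seq1_17987 (ratio 6.29).

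Spread over the libraries was also wide in some of these genes. The median SD of log2 values over the 8 libraries in SD-S was 0.33 for the southern-only genes and 0.23 for the others. In BR-S it was 0.29 and 0.22. The contrast was smaller within DNT, with 0.31 and 0.26 in SD-S and 0.28 and 0.24 in BR-S. Within GT the values were 0.40 and 0.22, and 0.30 and 0.21. Over all 16 libraries, the widest spreads were those of TCALIF_05816 (SD 2.17 on the log2 scale), Contig1922_1921 (1.81) and comp39930_c1_seq2_24681 (1.60), and in each all 8 BR-S libraries were above all 8 SD-S libraries. The narrowest were those of comp47983_c0_seq1_36362 (0.17), comp48596_c0_seq1_37658 (0.18) and comp47779_c0_seq1_35930 (0.19). The transcript comp48596_c0_seq1_37658 ran from 13.5 to 23.8 in SD-S and from 16.1 to 19.6 in BR-S, and comp47779_c0_seq1_35930 from 15.6 to 23.8 and from 20.6 to 26.2. The lower level of the southern-only genes also widens the spread from counting, and its part was not tested.

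Of the 80 genes, 17 occur in the authors' lists of descriptions and 12 of these have a description, 2 GT and 10 DNT. These lists hold 4508 of the 21556 genes and are mostly made of genes that the authors had called, so what they leave out says nothing on function. By words in the descriptions, 2 are receptors (of 131 genes so described), 1 is a heat-shock protein (of 48) and 1 a transporter (of 128). None carried a word for cuticle, lectin, peptidase, detoxification, histone, transposon or transcription factor, in a set of only 12.

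The most highly expressed of them, Contig4257_5916, is described as ribosomal protein S6 kinase alpha-5, in mammals a nuclear kinase that acts on chromatin and transcription factors after stress and growth signals. It ran from 55.2 to 79.9 in SD-S and from 73.8 to 114 in BR-S, with ranges that overlapped. A further gene of this description, the GT TCALIF_12857, was listed in all 4 populations, with 20NV means of 11.6 and 16.5 in SD-S and BR-S, and of 17.6 and 12.1 in the northern SC-N and BB-N. So a gene with this description was counted in the north, at a lower level than that of the southern-only transcript in the south.

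The nuclear receptors are comp49097_c0_seq2_38819 (steroid hormone receptor 3) and comp47194_c1_seq3_34671 (liver X receptor alpha, in mammals a sterol-activated transcription factor). Over all treatments comp49097_c0_seq2_38819 ran from 14.6 to 25.9 in SD-S and from 9.04 to 26.0 in BR-S, and comp47194_c1_seq3_34671 from 4.75 to 11.1 and from 4.32 to 6.62, with overlap in both. No other gene with these descriptions was found in the lists.

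Membrane proteins and trafficking were represented by 4 transcripts of low level. At 20NV comp47628_c0_seq1_35506 (an MFS-type transporter) had 8.64 and 10.3 in SD-S and 7.28 and 7.99 in BR-S. Another DNT with its description, comp27175_c0_seq1_14543, was counted in the north too. Its 20NV means were 17.9 (SC-N), 3.83 (BB-N) and 9.57 (BR-S), with none for SD-S. The transcript comp47983_c0_seq1_36362 (otopetrin-2-like, a family of proton channels in mammals and flies) ran from 7.75 to 10.1 in SD-S and from 6.62 to 9.91 in BR-S. For comp49025_c0_seq1_38614 (a homolog of MON2, which acts in Golgi and endosome traffic in yeast) the ranges were 8.14 to 12.5 and 5.29 to 14.4, and for comp49507_c9_seq2_39867 (probable palmitoyltransferase ZDHHC8, of a family that attaches fatty acids to proteins) 3.89 to 6.95 and 4.61 to 8.30. SD-S and BR-S overlapped in all 4.

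Proteins secreted or bound to chromatin made up most of the rest. Contig589_588 (alpha-2 macroglobulin, a trap for proteases in body fluids) ran from 9.54 to 31.2 in SD-S and from 19.2 to 30.9 in BR-S, and suffix a was the higher in all 4 SD-S treatments. The GT TCALIF_10179 (venom allergen 5-like, of a family of secreted cysteine-rich proteins) ran from 6.15 to 17.0 in SD-S and from 10.6 to 20.0 in BR-S. The gene with the next identifier, TCALIF_10180, has the same description and was listed in all 4 populations, with 20NV means of 5.53 and 2.04 in SD-S and BR-S, and of 12.8 and 1.95 in the northern SC-N and BB-N. Further genes described as venom allergen 5 were also counted in the north. TCALIF_06473 had 20NV means of 46.7 (SC-N), 67.3 (BB-N) and 3.17 (SD-S), with none for BR-S. For TCALIF_07187 they were 56.3 (SC-N), 101 (BB-N), 55.3 (SD-S) and 122 (BR-S).

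The GT TCALIF_13331 (homolog of SPT2, a protein that binds histones during transcription in yeast) ran from 3.31 to 7.04 in SD-S and from 7.94 to 12.3 in BR-S, without overlap. TCALIF_13332, with the next identifier and the same description, had 20NV means of 4.78 (SD-S), 5.11 (SC-N) and 4.62 (BB-N). For BR-S it had none in the values of 28ST vs 20NV. Neighbouring identifiers with the same description may stand for parts or copies of a gene between which the counting could split reads, so the values of TCALIF_10179 and TCALIF_13331 are uncertain. The same holds for comp49199_c0_seq4_39064 (described as CG13310), since many DNT carry that description, several of them listed in the north. It ranged widely, from 4.38 to 26.5 in SD-S and from 1.89 to 27.7 in BR-S.

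Of the comp transcripts, 3 belong to an assembly component with another listed transcript, so that reads could be shared between forms. In each case that other transcript had no mean at 20NV in the north either. It was comp48727_c0_seq2_37948, with means of 4.97 in SD-S and 9.08 in BR-S, beside comp48727_c0_seq4_37950, comp49199_c0_seq5_39065, with 7.64 and 5.85, beside comp49199_c0_seq4_39064, and comp45494_c0_seq1_31700, with 2.06 in SD-S only, beside comp45494_c0_seq5_31704.

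The heat-shock protein was the gene with the largest excess of SD-S over BR-S. Heat shock protein 40 is a co-chaperone that hands unfolded proteins to the larger heat-shock proteins. The DNT comp32785_c0_seq1_17987 had 76.4 and 110 at 28ST and 44.2 and 67.3 at 20NV in SD-S, and 12.9 and 17.0 at 28ST and 7.28 and 10.4 at 20NV in BR-S. In the variable regime it had 72.3 and 83.0 at 28V and 52.0 and 72.0 at 20V in SD-S, and 10.9 and 33.4 at 28V and 5.47 and 11.5 at 20V in BR-S. It was higher at 28° in both suffixes of both populations and in both regimes, although at 28V against 20V the libraries of BR-S overlapped.

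Its log2 fold changes with their SE were 0.74 ± 0.13 for 28ST vs 20NV and 0.34 ± 0.13 for 28V vs 20V in SD-S, and 0.70 ± 0.20 and 1.17 ± 0.26 in BR-S. None passed after adjustment over all genes of the table (limma, adjusted p = 0.461, 1.00, 0.836 and 0.172). For 28V vs 20V in BR-S the edgeR likelihood ratio test gave an adjusted p of 0.00733. The difference in response between SD-S and BR-S for 28V vs 20V was -0.83 ± 0.27 (adjusted p = 1.00). Leaving out any 1 library moved the values widely, to between 0.44 and 1.04 for 28ST vs 20NV and between 0.10 and 0.57 for 28V vs 20V in SD-S, and to between 0.47 and 0.93 and between 0.40 and 1.94 in BR-S. For 28V vs 20V in BR-S the gene was called without the 20V library of suffix b (1.64, adjusted p = 0.0151). Such fits have no block, and the spread comes from the treatment with both libraries left, so the lone library is assumed to vary like those.

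Other genes described as heat shock protein 40 were listed in all 4 populations: TCALIF_00519, TCALIF_05614 and comp49814_c3_seq5_40727. At 20NV the means of TCALIF_00519 ranged from 75.8 to 103 over the 4 populations, those of TCALIF_05614 from 47.2 to 65.1 and those of comp49814_c3_seq5_40727 from 21.1 to 37.4. For 28ST vs 20NV TCALIF_05614 had log2 fold changes of 1.14 (SD-S) and 1.48 (BR-S), and comp49814_c3_seq5_40727 of 0.89 and 1.15. The values for TCALIF_00519 were -0.20 and -0.08. For 28V vs 20V TCALIF_05614 had 0.63 in either population, comp49814_c3_seq5_40727 had 0.88 (SD-S) and 0.40 (BR-S), and TCALIF_00519 had 0.05 and 0.16. None of these passed the threshold in limma (lowest adjusted p = 0.0578). The paper, with its own test, lists TCALIF_05614 as differentially expressed for 28ST vs 20NV in all 4 populations, with higher expression at 28°. The value of comp32785_c0_seq1_17987 lay between those of the other genes of its description for 28ST vs 20NV and, in SD-S, for 28V vs 20V, and above all 3 for 28V vs 20V in BR-S.

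Among the genes described as heat-shock proteins or chaperones, 44 of 48 had a positive log2 fold change for 28ST vs 20NV in SD-S (median 0.77, 1 called up) and 40 of 46 in BR-S (median 0.65, 9 called up). For 28V vs 20V it was 43 of 48 in SD-S (median 0.49, 0 called) and 41 of 45 in BR-S (median 0.40, 4 called up). These descriptions come mostly from genes called in these samples, and their direction is not independent evidence. For 20V vs 20NV 8 of 48 were called up in SD-S (median 0.12) and 0 of 43 in BR-S (median 0.07). In BR-S at 28V vs 20V 6 of the 45 had a larger fold change than the southern-only heat shock protein 40, and 22 to 28 did in the other comparisons of 28° with 20°.

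All 80 southern-only genes were tested for each comparison in each southern population, within a fit over all genes of the table. For 20V vs 20NV in SD-S 2 of the 80 were called, both lower at 20V, against 1.9% of all genes (340 genes, 251 of them higher at 20V). In the other 5 comparisons 0 of the 80 were called by limma. The shares of all genes called there were 0.028% for 28ST vs 20NV and 0% for 28V vs 20V in SD-S, and 0.12% for 28ST vs 20NV, 0.188% for 28V vs 20V and 0% for 20V vs 20NV in BR-S. The quasi-likelihood test of edgeR and DESeq2 also called 0 of the 80 in these 5 comparisons, and the likelihood ratio test of edgeR called 2, comp49191_c0_seq1_39028 for 28ST vs 20NV and comp32785_c0_seq1_17987 for 28V vs 20V, both in BR-S (0.51% and 0.604% of all genes). The study's own calls came from an edgeR likelihood ratio test with the sequencing lane as a block. With 2 libraries per treatment and 1 residual degree of freedom per gene, only large changes could pass.

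TCALIF_08615, named without a function in the lists, had 13.8 and 6.90 at 20V in SD-S, against 88.6 and 17.5 at 20NV. The log2 fold change was -1.93 ± 0.34 (SE, limma, adjusted p = 2.38e-06), and both suffixes fell. Suffix a had most of the level at 20NV, and at 28ST the libraries stood at 90.5 and 12.2, so the suffixes differed by more than 5-fold at each. In BR-S it had 19.0 and 13.6 at 20V and 26.0 and 48.1 at 20NV (log2 fold change -1.15 ± 0.36, adjusted p = 1.00). The difference between the populations in this change was -0.78 ± 0.60 (adjusted p = 1.00).

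TCALIF_13222, a GT with no entry in the lists, had 20.278 and 15.2 at 20V in SD-S, against 42.0 and 34.8 at 20NV (log2 fold change -1.10 ± 0.32, limma, adjusted p = 0.0376). In the same population it had 13.7 and 23.0 at 28V and 39.3 and 35.3 at 28ST, so its 4 libraries of the variable regime were below its 4 of the nonvariable regime. In BR-S it had 17.5 and 22.6 at 20V, against 19.4 and 50.9 at 20NV, which overlapped (log2 fold change -0.69 ± 0.30, adjusted p = 1.00). The difference between the populations was -0.41 ± 0.40 (adjusted p = 1.00).

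Both calls were fragile. For 20V vs 20NV in SD-S the prior degrees of freedom of limma were infinite, so that all genes of a given level shared a variance. The quasi-likelihood test of edgeR also called both (317 genes in all, 1.77%), while its likelihood ratio test (1.54%) and DESeq2 (0.809%) called only TCALIF_08615. Without the suffix as a block 67 genes were called in all and 0 of the 80, with adjusted p-values of 0.938 for TCALIF_08615 and 0.414 for TCALIF_13222. The log2 fold change of TCALIF_08615 was -0.81 (adjusted p = 0.309) without the 20NV library of suffix a and -1.48 (adjusted p = 0.690) without the 20V library of suffix b, and the fit of all 8 libraries gave an adjusted p of 0.965. TCALIF_13222 kept its direction but had adjusted p-values of 0.0846 to 1.00 without any 1 library. Without the 20NV library of suffix a comp49199_c0_seq4_39064 was called instead, with a change of 1.76 (adjusted p = 0.0117), against 0.79 with all 4 libraries and -0.18 without the 20NV library of suffix b. That call again rests on the spread of the 20V libraries alone.

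**Figure D4:**
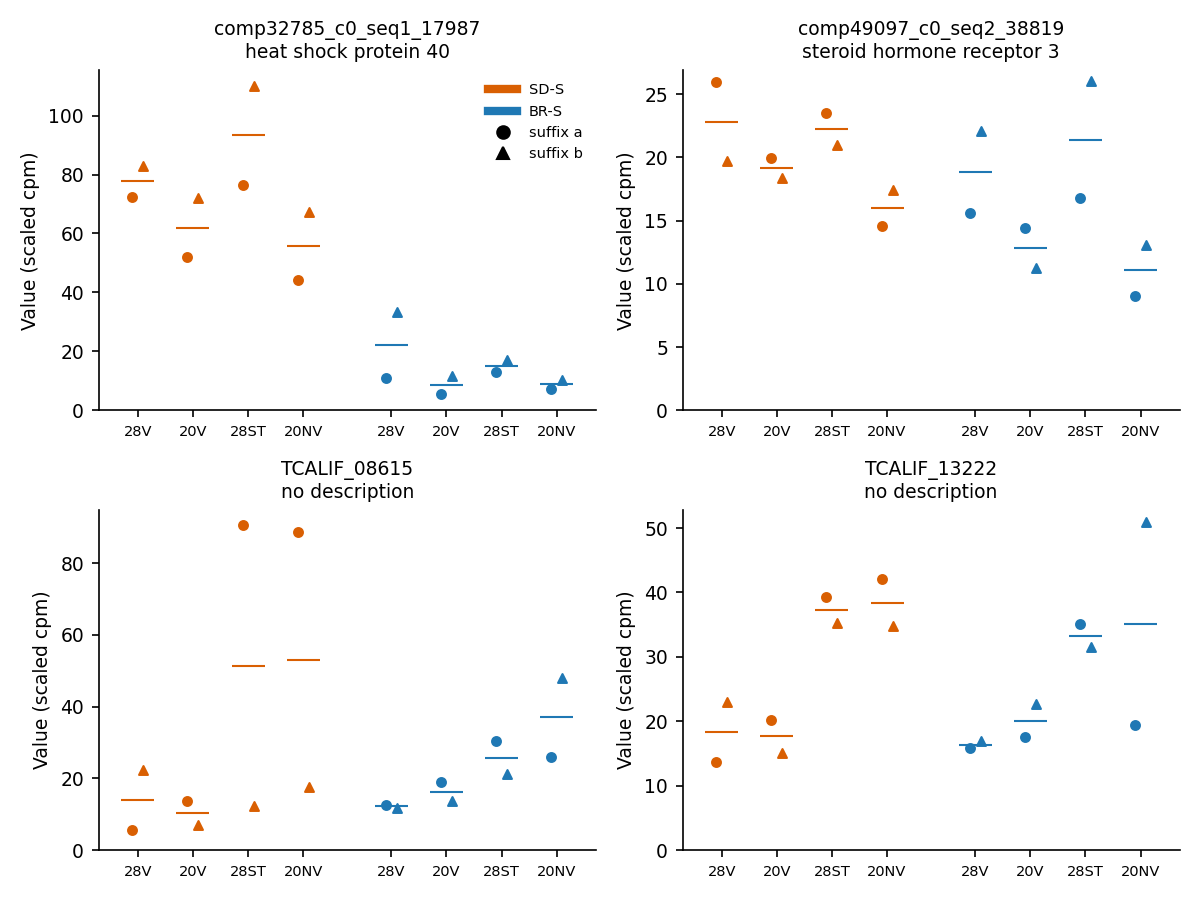
Values in scaled cpm of 4 southern-only genes in each library of SD-S (orange) and BR-S (blue) at 28V, 20V, 28ST and 20NV; circles are suffix a, triangles are suffix b, and lines are means of the 2 libraries. The heat shock protein 40 of SD-S lies between 44.2 and 110, above all BR-S libraries (5.47 to 33.4), and the 4 variable-regime libraries of TCALIF_13222 in SD-S (13.7 to 23.0) lie below its 4 nonvariable ones (34.8 to 42.0).

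At an unadjusted p under 0.05 the southern-only genes numbered 2 of 80 for 28ST vs 20NV in SD-S (4.87% of all genes), 5 for 28V vs 20V (4.23%) and 9 for 20V vs 20NV (5.6%), and in BR-S 10 for 28ST vs 20NV (5.34%), 13 for 28V vs 20V (5.81%) and 5 for 20V vs 20NV (3.22%). The 9 in SD-S were 2 higher and 7 lower at 20V, and the 13 in BR-S were 5 higher and 8 lower at 28V. These numbers depended on the fit. The 13 became 6 without the block, 2 with DESeq2 and 0 to 9 without any 1 library (0 without the 20V library of suffix a), and the 9 became 4, 3 and 3 to 18. The 10 for 28ST vs 20NV in BR-S became 9, 2 and 4 to 9. The median log2 fold change of the 80 in SD-S was -0.01 and -0.02 for 28ST vs 20NV, 0.01 and -0.01 for 28V vs 20V and 0.04 and 0.03 for 20V vs 20NV, each pair giving the southern-only genes and then all genes. In BR-S it was -0.01 and -0.02 for 28ST vs 20NV, -0.10 and -0.01 for 28V vs 20V and 0.013 and 0.0048 for 20V vs 20NV.

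**Figure D5:**
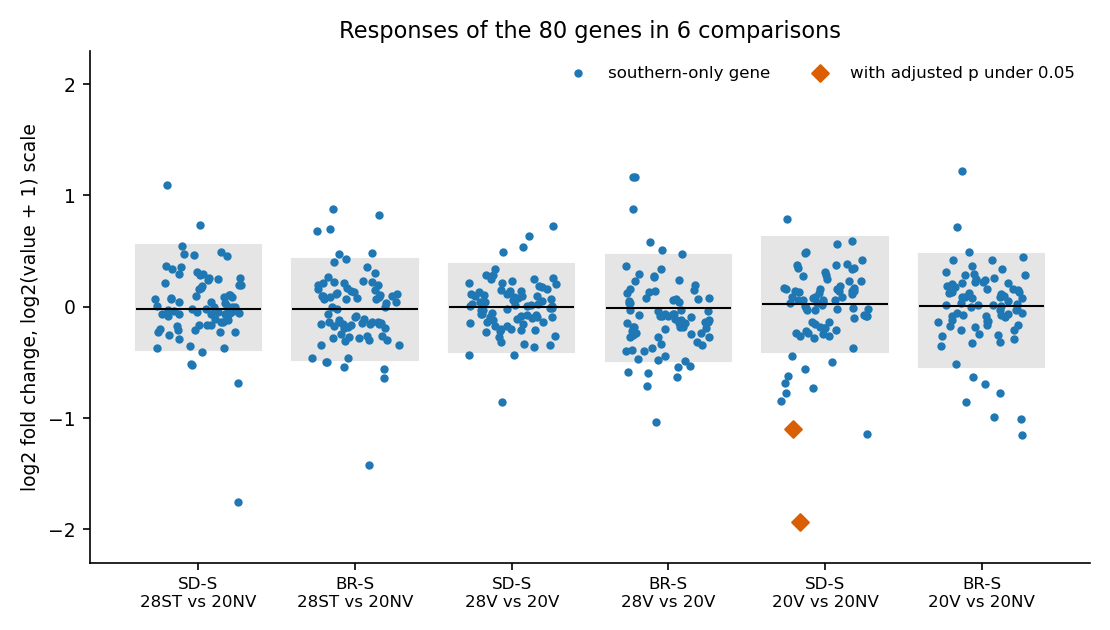
Log2 fold changes of the 80 southern-only genes (points, on the log2(value + 1) scale) in 3 comparisons in SD-S and BR-S; grey boxes span the percentiles 5 to 95 of all genes of the table, lines mark their medians, and diamonds mark an adjusted p under 0.05. The only diamonds are TCALIF_08615 (-1.93) and TCALIF_13222 (-1.10) for 20V vs 20NV in SD-S.

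The genes with the largest positive and negative log2 fold changes in each comparison, among those with the same direction in both suffixes, were mostly not called. For 28ST vs 20NV in SD-S the largest positive one was that of comp32785_c0_seq1_17987 given above, and the largest negative one that of TCALIF_06884, which had 1.36 and 6.33 at 28ST and 18.1 and 9.23 at 20NV (-1.75 ± 0.62, limma, adjusted p = 0.990). That gene varied widely, with 1.11 and 24.3 at 28V. In BR-S it had 75.8 and 36.7 at 28V and 10.9 and 47.2 at 20V, with suffixes that moved in opposite directions, and its log2 fold change was 1.17, or 0.16 to 2.17 without any 1 library. It was called only without the 20V library of suffix b (adjusted p = 1.74e-05), where the spread comes from the 28V libraries alone.

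In BR-S the largest positive value at 28ST vs 20NV was that of the nuclear receptor comp49097_c0_seq2_38819, with 16.8 and 26.0 at 28ST and 9.04 and 13.1 at 20NV (0.88 ± 0.19, limma, adjusted p = 0.515). In SD-S it had 23.5 and 21.0 at 28ST and 14.6 and 17.4 at 20NV, again without overlap, and it was higher at 28V than at 20V in both suffixes of both populations. The largest negative value was that of comp49191_c0_seq1_39028, with 1.94 and 0.945 at 28ST and 3.97 and 7.20 at 20NV (-1.42 ± 0.36, adjusted p = 0.734; edgeR likelihood ratio test -2.05, adjusted p = 0.0387). The same gene had the largest negative value at 28V vs 20V, with 2.48 and 1.74 at 28V and 6.62 and 4.29 at 20V (-1.04 ± 0.30, adjusted p = 0.494). In SD-S it had 3.40 and 1.42 at 28ST and 8.31 and 1.96 at 20NV, and 5.56 and 2.12 at 28V and 4.85 and 4.76 at 20V, so that only the nonvariable comparison had the same direction in both suffixes.

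For 28V vs 20V in SD-S the largest positive value was that of comp45494_c0_seq5_31704, with 11.3 and 12.2 at 28V and 8.82 and 5.05 at 20V (0.72 ± 0.26, limma, adjusted p = 1.00), and the largest negative value that of comp38439_c0_seq1_22963, with 34.3 and 21.8 at 28V and 45.7 and 55.6 at 20V (-0.86 ± 0.24, adjusted p = 0.908). In BR-S comp38439_c0_seq1_22963 had 62.1 and 85.7 at 28V and 128 and 95.1 at 20V, which was lower as well. For 20V vs 20NV the largest positive values were those of TCALIF_10179 in SD-S, with 14.3 and 14.3 at 20V and 13.1 and 6.15 at 20NV (0.59 ± 0.37), and comp33652_c0_seq1_18808 in BR-S, with 17.8 and 10.9 at 20V and 3.31 and 7.99 at 20NV (1.22 ± 0.46), both with an adjusted p of 1.00. Without any 1 library they were 0.11 to 1.06 and 0.68 to 1.75. The largest negative value was that of TCALIF_08615 in both populations. The largest positive one for 28V vs 20V in BR-S was that of comp32785_c0_seq1_17987.

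Libraries of the compared treatments did not overlap in some genes without a call. In SD-S both 28ST libraries were above both 20NV libraries in 6 of the 80 (9.64% of all genes) and below them in 10 (9.73%), both 28V libraries above both 20V libraries in 12 (12.6%) and below in 6 (13%), and both 20V libraries above both 20NV libraries in 5 (13%) and below in 13 (10.2%). In BR-S it was 16 above (16.2%) and 14 below (17.3%) for 28ST vs 20NV, 6 above (13.4%) and 22 below (16%) for 28V vs 20V, and 13 above (17.1%) and 9 below (16.5%) for 20V vs 20NV. The largest excess over the share of all genes was thus that of genes lower at 28V in BR-S, 22 of 80. None of these was called. That share covers GT and DNT together, and no share for DNT alone is given. In that comparison the 58 southern-only DNT had a median log2 fold change of -0.13 (20 positive). The 22 GT had a median of -0.05 (8 positive). The median of all 80 was -0.10 with all 4 libraries. It was -0.05 without the 20V library of suffix a and -0.16 without that of suffix b. Without the 28V library of suffix a it was -0.21, and without that of suffix b it was -0.03. The study's read table lists the second replicate of the variable warm treatment with the lowest mapped share in BR-S. Whether this lowered the DNT values was not tested.

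Counted over both suffixes of both populations, 4 southern-only genes were higher at 28ST than at 20NV in all 4 pairs of libraries (8.49% of the genes in both tables) and 10 were lower (9.95%). For 28V vs 20V the numbers were 4 higher (7.99%) and 9 lower (8.15%), and for 20V vs 20NV 5 higher (7.19%) and 10 lower (7.04%). Those higher at 28° in all pairs of both regimes were comp32785_c0_seq1_17987 and comp49097_c0_seq2_38819, and comp48596_c0_seq1_37658 was lower in all of them. For 20V vs 20NV the 10 lower ones include the called genes TCALIF_08615 and TCALIF_13222 and the 2 highly expressed DNT comp43192_c0_seq4_28607 and Contig360_359.

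The difference between SD-S and BR-S in each response was tested on all genes that both tables hold. No southern-only gene passed for 28ST vs 20NV, 28V vs 20V or 20V vs 20NV, and 0% of all genes did (limma). At an unadjusted p under 0.05 there were 5 of 80 for 28ST vs 20NV (2.07% of all genes), 5 for 28V vs 20V (2.47%) and 1 for 20V vs 20NV (2.43%). The edgeR likelihood ratio test called 11, 42 and 14 genes for these, none of them southern-only. The smallest unadjusted limma p of a southern-only gene belonged to comp24564_c0_seq1_13026 for 28V vs 20V. It had 58.4 and 49.9 at 28V and 70.8 and 54.2 at 20V in SD-S, and 40.9 and 42.5 at 28V and 18.7 and 26.4 at 20V in BR-S, a difference in log2 fold change of -1.07 ± 0.23 (adjusted p = 1.00).

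Among the southern-only genes no difference between the regimes in the response to 28° was detected. No southern-only gene had an adjusted p under 0.05 for the difference of 28V vs 20V and 28ST vs 20NV in SD-S or in BR-S, and 0% of all genes did (limma over the 8 libraries of a population). The paper reports that heat-shock protein genes called in both comparisons had lower fold changes in the variable regime in SD-S and BR-S. This fit called none of those genes either, so the lack of calls cannot show that responses were alike. At an unadjusted p under 0.05 there was 1 of 80 in SD-S (1.4% of all genes), comp38439_c0_seq1_22963, and 3 in BR-S (1.76%), comp24564_c0_seq1_13026, Contig589_588 and comp47628_c0_seq1_35506. Contig589_588 had 29.8 and 30.9 at 28ST and 19.2 and 24.2 at 20NV in BR-S, and 25.7 and 24.1 at 28V and 25.02 and 30.5 at 20V.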

How the data were processed

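RNA was measured in 32 libraries of 4 populations (2 pools per treatment). As the study's methods describe, the authors mapped trimmed 100-bp reads with CLC Genomics Workbench 7.0.4 to each population's genomic and then de novo transcripts, kept unique reads, removed genes under 2 cpm in more than 2 of the 4 libraries of a comparison and scaled the counts with TMM in edgeR. The deposited signal of each library is the count divided by the scaled library size, in cpm, and the 12 tables hold 1 comparison in 1 population each. The authors' fold changes, log2 mean levels and p-values in these tables were not used, and neither were 4 further columns of values that repeat other tables. Descriptions of genes are the authors'.

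Reads were recovered from the values (100% of entries whole within 0.02). Libraries present in more than 1 table had identical reads. Per library 3647378 to 14406882 reads were recovered in the south, so a value of 5 rests on few reads in the smallest library. The replicates of each treatment differed by more than sampling noise. Per the study's methods each pool was a dish of its own, with animals from the laboratory culture of its population. Replicates were also run in separate lanes, so the spread between the libraries of a treatment holds both dish and lane. The limma p-values of the blocked fits rest on 1 residual degree of freedom per gene and on variance shared between genes. For 20V vs 20NV in SD-S they rest on the shared variance alone.

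The main fits of each comparison used limma 3.58.1 (R 4.3.3) and log2(value + 1), which understates the change of low genes. They had the suffix as a block (it stands for the sequencing lane of the study's model) and a variance trend. Genes with a two-sided Benjamini-Hochberg adjusted p under 0.05 over the whole table are called. Deviations of libraries of the same suffix were correlated by 0.16 to 0.37 in 5 of the 6 southern comparisons and by -0.35 for 20V vs 20NV in BR-S. The column names do not tie a suffix to a replicate number. In the study's read table the second replicate has more mapped reads in every southern treatment, as suffix b has here, so suffix b may be the second replicate, which in SD-S was run on another sequencer model. No column was assigned to a sample on that ground. Differences between SD-S and BR-S and between regimes were interaction terms. Alternatives used edgeR 4.0.16 and DESeq2 1.42.0 on the recovered reads, other pseudocounts, filters and scalings, and each library left out. The fits were tested on simulated data.

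The southern-only genes, the description classes and the named genes were chosen with earlier results of these data known. Named were called genes, the 12 of highest level, the 4 largest and 4 smallest ratios of SD-S over BR-S, described genes, the 2 on either side of the minimum, the largest rise and fall in each comparison that went the same way in both suffixes, and the 3 widest and 3 narrowest spreads. Genes beyond this rule were chosen after their values were seen. None of the 80 identifiers occurs in the RefSeq gene table used, so no positions or sequences are given.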

Additional observations from a re-analysis of the deposited data

How the results depend on the processing

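The number of southern-only genes (80, 22 GT) was 206 (61 GT) with a minimum of 2, 45 (13) with a minimum of 10 and 235 (76) without one, and 70 to 87 (20 to 22) from the 20NV library of either suffix alone. Asking for absence from only SC-N gave 220 (50) and from only BB-N 326 (47), 2 alternatives chosen after seeing the data. With 28ST, 20V or 28V values in place of 20NV it was 81, 77 and 89, with 71, 71 and 74 of the 80 among them.

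The numbers of called genes depended on the fit. With counts given first for 28ST vs 20NV, next for 28V vs 20V and last for 20V vs 20NV, limma with the replicate block called 5, 0 and 340 genes in SD-S and 21, 33 and 0 in BR-S. Without the block it called 1, 0 and 67 in SD-S (0 southern-only) and 0, 0 and 0 in BR-S, so pairing by suffix decides many calls. The study's calls came from the kind of test given next, with lane as its block. The limma counts are therefore not those of the study. The edgeR likelihood ratio test with the block called 95, 119 and 276 in SD-S and 89, 106 and 79 in BR-S, with 1 southern-only gene for 20V vs 20NV in SD-S and 1 each for 28ST vs 20NV and 28V vs 20V in BR-S, and 11, 42 and 14 for the differences between the populations. The quasi-likelihood test called 2, 0 and 317 in SD-S and 7, 23 and 0 in BR-S, and DESeq2 86, 50 and 145 (1 southern-only) in SD-S and 40, 40 and 19 in BR-S. The fit of 8 libraries gave 15, 0 and 9 (0 southern-only) in SD-S and 5, 0 and 0 in BR-S. Without the variance trend 1 southern-only gene was called for 20V vs 20NV in SD-S, and 0 genes for 28ST vs 20NV in SD-S, 9 for 28ST vs 20NV and 4 for 28V vs 20V in BR-S. For 28ST vs 20NV in BR-S a pseudocount of 0.5 gave 13 and a mean of at least 5 gave 8. For 28V vs 20V in BR-S plain cpm gave 9 and a pseudocount of 5 gave 19, and plain cpm gave 9 for 20V vs 20NV in BR-S. A crossed replicate block there, added after seeing the data, called 75. The cause was not tested. Leaving out each library in turn, in fits without the block, gave 7 to 82, 0 to 109 and 82 to 557 genes in SD-S and 0 to 13, 0 to 200 and 0 to 2 in BR-S, with 0 to 1 southern-only genes for 20V vs 20NV in SD-S and 0 to 2 for 28V vs 20V in BR-S. The 15 fold changes of named genes that were followed through the alternatives all had the same direction in both suffixes, most of them by the rule that chose them. None changed sign, which this choice favoured, so it is no measure of how stable the southern-only genes are. The fold change of comp49199_c0_seq4_39064 for 20V vs 20NV in SD-S, not among them, was -0.18 to 1.76 with each library left out.

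Depth limits these values: the lowest count of a southern-only gene in a library was 6 reads, and absence from the north means only counts under the filter.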
